A study of Mus musculus with 14 samples.

Results

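The genes described here are 46 chromatin regulators whose human counterparts are known from overgrowth, intellectual disability and autism. They were measured by RNA sequencing in the cortex of 14 mice. All of them were chosen by name from a table of 34193 genes, with earlier results of these data known. Every one of the 46 had reads in every animal and passed the filter on low counts. Of the animals, 7 carried 1 knockout allele of Dnmt3a and 7 were their wild-type littermates. All were C57BL/6J mice aged 8 weeks, with 4 females and 3 males of each genotype. The labels do not say how the knockout allele was made or which tissues carry it, and no other allele or treatment is given. The title of each sample starts with a number, its prefix, and 6 prefixes occur, each with animals of both genotypes and 1 sex. The labels do not say what a prefix marks. Animals of prefixes 046, 047, 048 and 139 are called set A (8 animals) and those of prefixes 119 and 141 set B (6 animals). Each set holds as many heterozygotes as wild types. The split follows the first principal component of all genes, found in earlier work on these data, so the sets were drawn with expression in view.

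DNMT3A adds methyl groups to DNA, and people who carry 1 damaged copy have Tatton-Brown-Rahman syndrome, with tall stature, intellectual disability and often autism. Related overgrowth conditions come from other chromatin genes. Loss of 1 copy of NSD1, which methylates histone H3 at lysine 36, gives Sotos syndrome, and variants of EZH2, which methylates lysine 27, mostly changes of single amino acids, give Weaver syndrome. Methylated lysine 36 is bound by DNMT3A and directs it to chromatin, whereas Polycomb complexes hold genes silent through lysine 27. The remaining members shape chromatin by moving nucleosomes (the CHD and BAF proteins), by adding or removing acetyl groups, or by folding DNA into loops (cohesin with CTCF). The question put to these data is whether the transcripts of such genes change when 1 copy of Dnmt3a is lost.

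Total counts were 8951835 to 14335406 per animal, and 13815 genes were tested. Levels are given as CPM, the count of a gene scaled to the library total with trimmed-mean factors. Dnmt3a itself ranged from 124 to 164 CPM (median 149) in wild-type and from 84.3 to 118 CPM (median 96.8) in heterozygous animals. These ranges did not overlap, at -0.57 on the log2 scale (SE 0.0641, adjusted p = 6.51e-05 in edgeR's quasi-likelihood F test). Summed neuron markers lay at 4685 to 6981 CPM in all animals. The summed cerebellum markers were at 7.72 to 19.6 CPM, choroid plexus markers at no more than 7.36 CPM and striatum markers at 127 to 412 CPM. None of these lists had a marker at 0 in every animal.

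Per kilobase of exon, member levels covered a wide range. Chd3, a helicase of the NuRD remodelling complex, stood highest at a mean of 69.9 CPM per kb. Smarcc2, a core BAF subunit, followed at 42.9 CPM per kb and Adnp, a homeodomain protein that works with CHD4, at 37.0 CPM per kb. The lowest levels were those of Brwd3 (1.11 CPM per kb), Ezh2 and Hdac8 (1.35 CPM per kb). Counts behind these values ran from 46 reads for Ezh2 in 1 animal to 8832 reads for Chd3 in another. After removal of genotype, sex and set, the SD of log2 CPM among animals had a median of 0.109 over members and 0.147 over all tested genes. Member genes had a median count of 1005, against 260 for all tested genes, and counting error is smaller at higher counts.

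Related pairs of members kept an order in every animal, with 1 exception. Ezh1 and Ezh2 are alternative catalytic subunits of Polycomb repressive complex 2 (PRC2), and Ezh2 is the form known from dividing cells. Per kilobase, Ezh1 was 4.38 to 11.8 times Ezh2 (median 8.50). Arid1a was 1.33 to 1.60 times its BAF alternative Arid1b, and the acetyltransferase gene Crebbp was 1.45 to 1.69 times Ep300. Ehmt1 was at 0.140 to 0.184 of Ehmt2, its partner in methylating lysine 9 of histone H3. Asxl1, a cofactor of the BAP1 deubiquitinase, was 4.64 to 7.50 times Asxl3. The BAF ATPases Smarca2 and Smarca4 lay nearest each other, at a ratio of 0.738 to 1.05 with both orders seen. These ratios rest on exon lengths of another annotation, so their size is approximate while their spread among animals is not affected.

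**Figure D1:**
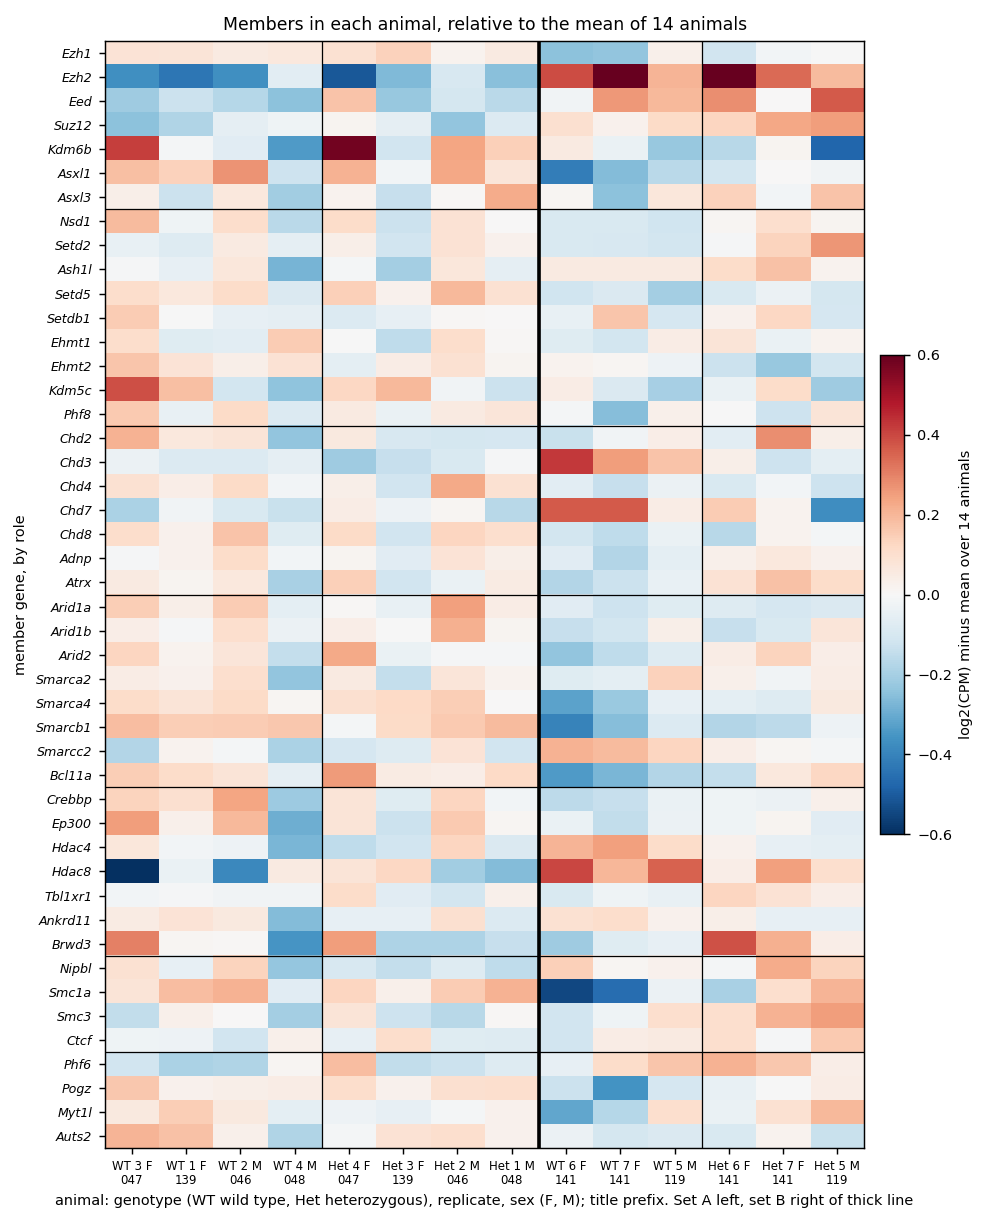
Log2 CPM of each of the 46 members (rows, by role) in each of the 14 animals (columns), as the difference from that gene's mean over all animals. Colours stop at 0.6 in either direction. Set A is left and set B right of the thick line, wild type (WT) before heterozygous (Het) within each. Ezh2 is below its mean in the columns of set A and above it in those of set B.

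The first comparison asked whether members differed between heterozygous and wild-type cortex, with sex and set as terms. None of the 46 passed the threshold of 0.05 after adjustment over all genes by edgeR, where 15 of 13815 genes passed (0.109%), 12 higher (0.0869%) and 3 lower (0.0217%). DESeq2 also called 0 members. At an unadjusted p under 0.05 there were 5 members (10.9%), beside 9.82% of all genes. The log2 fold change was positive for 35 members and negative for 11, with a median of 0.030, beside 51.2% positive and a median of 0.0032 over all tested genes. Without wild type replicate 4, the number of positive members was 27. No member had genotype ranges that stayed apart (0.123% of all genes did). In bulk tissue, fewer cells of a type and less RNA per cell cannot be told apart, here or in the comparisons that follow.

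Chd3 had the smallest p among members. Its level ran from 554 to 788 CPM (median 572) in wild-type and from 506 to 601 CPM (median 551) in heterozygous animals. The ranges overlapped, with the 3 highest values all from wild-type animals of set B. On the log2 scale Chd3 was at -0.17 (SE 0.0602, adjusted p = 0.362 by edgeR), and its heterozygous mean was lower in 5 of the 6 prefixes, all but 048. Ehmt2, which methylates lysine 9 of histone H3, ran from 150.2 to 172 CPM (median 157) in wild type and from 131 to 164 CPM (median 148) in heterozygotes. It too was lower in 5 of 6 prefixes, at -0.10 (SE 0.0468, adjusted p = 0.499 by edgeR).

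The other members with small p values pointed upward. Setd2, the enzyme that places the third methyl group on lysine 36, lay at 116 to 129.9 CPM (median 118) in wild-type and at 116 to 150.2 CPM (median 128) in heterozygous animals. It was higher in heterozygotes in 5 of 6 prefixes (0.12, SE 0.0515, adjusted p = 0.464 by edgeR). Bcl11a, a zinc finger protein of the neuronal BAF complex, was at 82.4 to 116 CPM (median 101) and 94.5 to 124 CPM (median 109). On the log2 scale it was at 0.14 (SE 0.0592, adjusted p = 0.440 by edgeR). Smc1a, a subunit of the cohesin ring, was at 30.7 to 51.7 CPM (median 43.7) and 39.1 to 51.6 CPM (median 48.9), for 0.17 (SE 0.0775, adjusted p = 0.505 by edgeR). Atrx, a remodeler that deposits histone H3.3, was at 222 to 266 CPM (median 246) and 234 to 287 CPM (median 269), for 0.12 (SE 0.0579, adjusted p = 0.527 by edgeR). In all 4 of these genes the ranges of the genotypes overlapped.

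The size of change that the 14 animals leave possible was read from the 95% intervals. Over all 46 members the intervals ran from a fall of 18.4% (Chd3) to a rise of 25.3% (Smc1a). For 41 members the whole interval lay within 20% of the wild-type level, and for 31 within 15%. The 5 whose intervals reached past 20% were Bcl11a, Smc1a, Brwd3, Eed and Kdm6b, all on the upper side. Each of the 46 intervals excluded a fall as large as that of Dnmt3a.

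By role, all 7 members of H3K27 methylation and Polycomb had positive values (median 0.075). None of the 7 had an unadjusted p under 0.05 by edgeR. By prefix they were higher in heterozygotes in 2 of 6 (Ezh2) to 5 of 6 (Eed). In cohesin and CTCF, 3 of 4 were positive (median 0.071). Enzymes of lysines 36, 4 and 9 were positive in 7 of 9 (median 0.021). Nsd1, the Sotos syndrome gene and the best-known link from lysine 36 to Dnmt3a, had 0.05 (SE 0.0580), with an interval from -4.44% to 12.8%. BAF and PBAF genes were positive in 6 of 8 (median 0.026), acetylation genes in 5 of 7 (median 0.0057) and the CHD and ATRX remodelers in 4 of 7 (median 0.0043). Phf6, Pogz, Myt1l and Auts2, grouped as other nuclear regulators, were positive in 3 of 4 (median 0.058). None of the 138 tested partners of these complexes passed either, and their median was 0.016. In the authors' deposited table, 0 of 46 members and 27 of 14160 genes had an adjusted p under 0.05, and 37 members were positive. The same 5 members led there by p, with Chd3 at -0.14 and Smc1a at 0.13 on the log2 scale of the authors' deposited table.

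**Figure D2:**
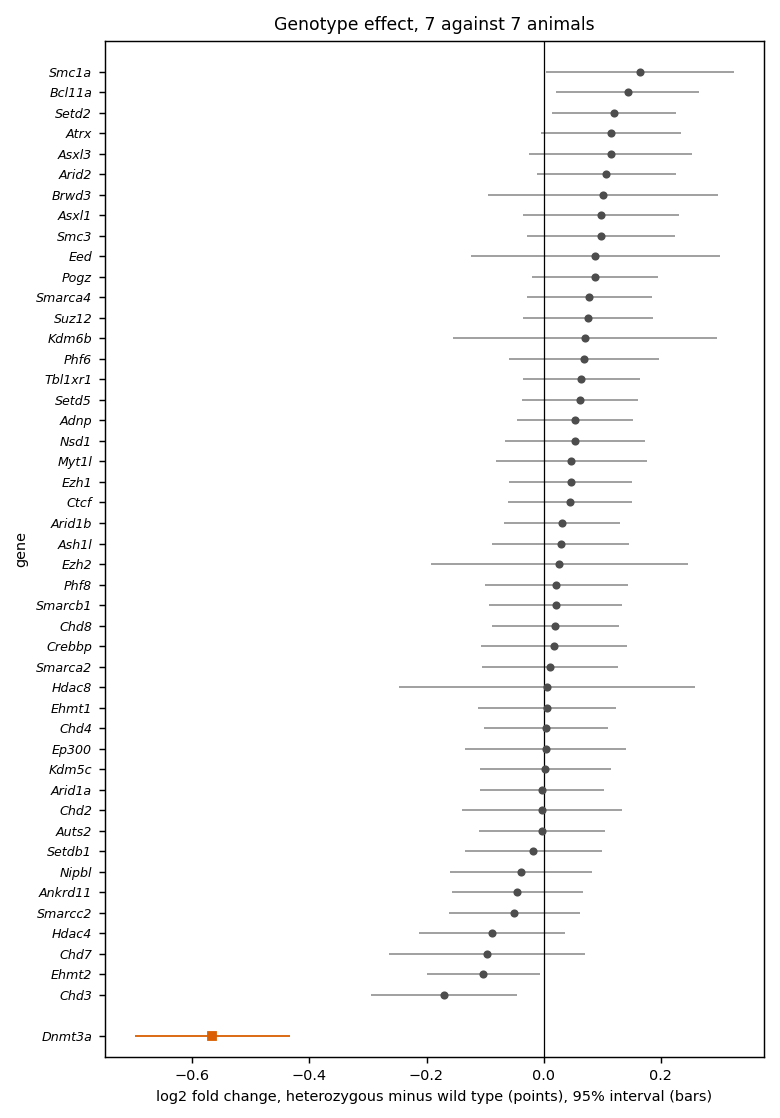
Log2 fold change, heterozygous minus wild type (horizontal axis), of the 46 members in order of size, with Dnmt3a below in orange. Points are edgeR estimates from 7 against 7 animals and bars are 95% intervals. Members reach from -0.17 (Chd3) to 0.17 (Smc1a), apart from Dnmt3a at -0.57.

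The genotype comparison was repeated within each set. In set A, with 4 animals of each genotype, 0 of 46 members and 0 of 13852 genes passed by edgeR, with 0 members and 609 genes at an unadjusted p under 0.05. The members' median was 0.0080. In set B, with 3 of each, 14 of 46 members passed (30.4%), beside 16.6% of all 13881 genes tested there. Of these, 10 were higher (8.88% of all genes were higher) and 4 lower (7.72% of all genes were lower). Positive values numbered 37 of 46, and the median was 0.068, beside 0.0016 for all genes. Ranges of the genotypes stayed apart for 17 of 46 members in set B (22.1% of all genes) and for 0 in set A (2.92% of all genes). Members had a higher median count than all tested genes (1005 against 260, over all 14 animals). The part of depth in the shares of set B, here and below, was not tested.

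Chd3 fell in set B. It measured 660, 788 and 697 CPM in wild-type replicates 5, 6 and 7 and 563, 601 and 537 CPM in heterozygous replicates 5, 6 and 7. All 3 heterozygotes lay below all 3 wild types, and the log2 difference was -0.33 (SE 0.0610, adjusted p = 0.000409 by edgeR). In set A its wild-type values were 554, 554, 572 and 566 CPM and its heterozygous values 583, 551, 532 and 506 CPM. There the groups overlapped (-0.05, SE 0.0565, adjusted p = 0.999 by edgeR).

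Smc1a, Bcl11a and Atrx rose in set B. Smc1a went from 43.7, 30.7 and 32.6 CPM in wild-type replicates 5, 6 and 7 to 51.6, 39.1 and 48.0 CPM in the heterozygotes (0.38, SE 0.0819, adjusted p = 0.00170 by edgeR). Its groups still overlapped, since the male wild type (replicate 5) stood above a female heterozygote (replicate 6), and sex is a term of the fit. Bcl11a went from 92.4, 82.4 and 86.2 CPM to 113.8, 94.5 and 109 CPM (0.28, SE 0.0630, adjusted p = 0.00216 by edgeR). Atrx went from 246, 224 and 232 CPM to 274, 269 and 287 CPM (0.24, SE 0.0560, adjusted p = 0.00276 by edgeR). For both, every heterozygote of set B exceeded every wild type of set B. Chd3, Smc1a, Bcl11a and Atrx were also called with any 1 of the 6 animals left out.

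The other 10 calls in set B were less stable. Upward were Setd2 (0.23), the BAF genes Arid2 (0.23) and Smarca4 (0.17), Asxl1 (0.24), the neuronal transcription factor gene Myt1l (0.21), Pogz (0.19), which encodes a binding partner of heterochromatin protein, and the bromodomain gene Brwd3 (0.33). Downward were Chd7 (-0.32), the remodeler of CHARGE syndrome, the deacetylase gene Hdac4 (-0.21) and Smarcc2 (-0.16). With 1 animal left out each was called in 1 to 4 of 6 fits, and the number of members called was 5 to 12, from 5 without heterozygous replicate 7 (10.9%, beside 8.82% of all genes) to 12 without wild type replicate 5 (26.1%, beside 16.9% of all genes). DESeq2 on set B called 9 members (19.6%), 7 higher and 2 lower, beside 10.5% of all genes. The 4 females of prefix 141 alone gave 12 (26.1%), 8 higher and 4 lower, beside 17.2% of all genes. Of the partner genes, 17 of 138 (12.3%) passed in set B, 10 higher and 7 lower, a smaller share than the 16.6% of all genes.

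Other measures moved with genotype in set B. Mitochondrial transcripts other than ribosomal RNA took 1.51 to 1.99% of counts in its wild types and 1.11 to 1.56% in its heterozygotes, against 0.571 to 0.860% and 0.616 to 0.797% in set A. Summed over 6 markers, astrocyte transcripts were at 2157 to 2885 CPM in wild types and 1868 to 2158 CPM in heterozygotes of set B. Summed over 8 markers, neuron transcripts were at 4685 to 6234 CPM and 6070 to 6688 CPM. In set A the astrocyte sums were 1556 to 1835 and 1536 to 1679 CPM, and the neuron sums 6196 to 6874 and 6448 to 6981 CPM. In set B the genotypes stayed apart for the 4 endothelial markers, at 148 to 169 CPM in wild types and 141 to 146 CPM in heterozygotes. They also stayed apart for the 3 meninges markers, at 42.5 to 57.8 and 35.8 to 39.1 CPM. In set A the endothelial sums were 125 to 151 and 113 to 133 CPM and the meninges sums 38.2 to 50.5 and 41.2 to 45.0 CPM, with overlap in both. Sums of microglia, oligodendrocyte, oligodendrocyte precursor, striatum and choroid plexus markers overlapped between genotypes in set B, as did those of cerebellum. The part of these measures in the calls of set B was not tested.

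**Figure D3:**
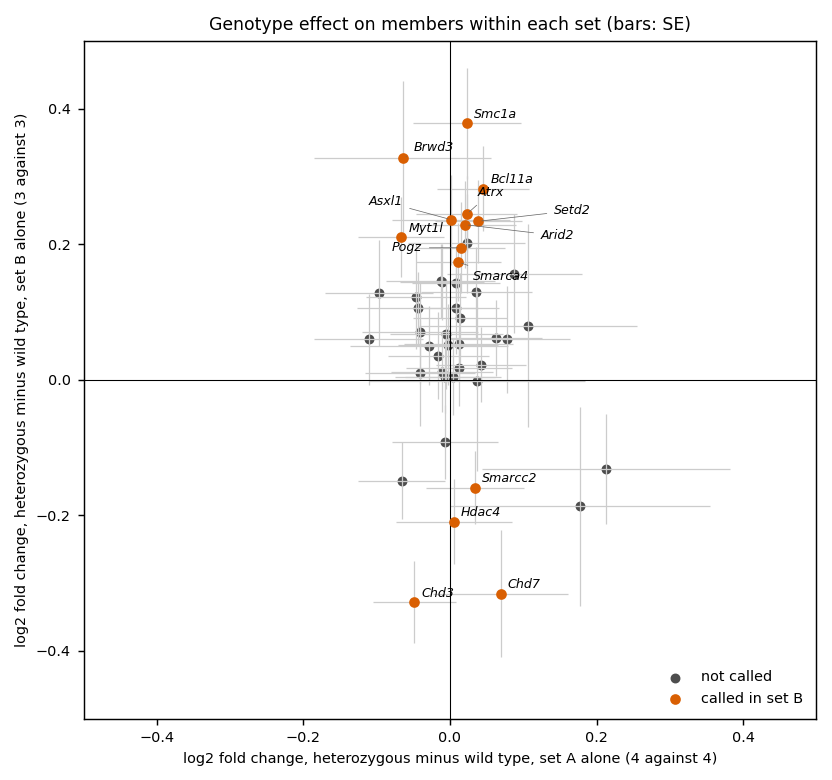
Log2 fold change, heterozygous minus wild type, of each of the 46 members in set A alone (horizontal axis, 4 against 4 animals) and set B alone (vertical axis, 3 against 3), with SE bars. Orange marks the 14 members called in set B. Values in set B reach from -0.33 (Chd3) to 0.38 (Smc1a), and none of the members was called in set A.

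The difference between the sets was tested as such. With an interaction of genotype and set over all 14 animals, 0 of 13815 genes passed by edgeR, and 14.7% had an unadjusted p under 0.05. Members were at 0 called and 8 of 46 (17.4%) with an unadjusted p under 0.05, while DESeq2 called 210 genes and 0 members. The leading members were Chd3 (-0.29, SE 0.100, adjusted p = 0.183 by edgeR), Chd7 (-0.39), Smc1a (0.35) and Myt1l (0.27). With the title prefix as a replicate block, 767 genes passed (5.55%), and 2 of 46 members were among them, near that share. These were Chd3 (-0.28, SE 0.0839, adjusted p = 0.0408 by edgeR) and Myt1l (0.27, SE 0.0838, adjusted p = 0.0483 by edgeR). With no block, 1 member was called without wild type replicate 4 (2.17%, beside 4.06% of all genes). Without wild type replicate 5, 3 members were called (6.52%, beside 6.13% of all genes). Members were thus called for a difference between the sets in some of the fits and not in others. Where they were called, their share was near or below that of all genes. Between females and males the genotype effect differed for 0 members and 0 genes by edgeR, with 316 genes (2.29%) and 1 member under 0.05 before adjustment. DESeq2 called 0 there too.

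The sets themselves differed far more than the genotypes did. Between set B and set A, with genotype and sex as terms, 21 of 46 members (45.7%) passed, beside 38.8% of all genes. Of these 8 were higher in set B (19.1% of all genes were) and 13 lower (19.6% of all genes were). The sets were drawn from the expression of all genes, so these counts describe the split and do not test it. The same holds for the adjusted p-values of single genes between the sets. Set also varied only between prefixes, while the fits took each animal as a separate replicate. The members' median log2 difference was -0.017, beside -0.0013 for all genes.

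The H3K27 and Polycomb members held both the highest and the lowest values, with 6 of 7 called, 3 higher and 3 lower. Ezh2, Eed and Suz12 encode the 3 core subunits of PRC2, and their promoters are shown because all 3 were higher in set B, with that of Ezh1, which was lower. Each is 300 bases from RefSeq (GRCm38.p6), 250 before to 50 after the annotated start, written on the gene's strand with each CG pair in capitals.
Ezh2, chr6:47594981-47595280, minus strand: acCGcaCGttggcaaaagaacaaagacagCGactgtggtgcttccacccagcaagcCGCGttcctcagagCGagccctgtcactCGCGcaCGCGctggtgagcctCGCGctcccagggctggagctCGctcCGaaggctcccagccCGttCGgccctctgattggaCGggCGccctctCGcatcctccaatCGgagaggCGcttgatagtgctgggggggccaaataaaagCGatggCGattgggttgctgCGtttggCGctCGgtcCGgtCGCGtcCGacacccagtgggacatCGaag
Eed, chr7:89980927-89981226, minus strand: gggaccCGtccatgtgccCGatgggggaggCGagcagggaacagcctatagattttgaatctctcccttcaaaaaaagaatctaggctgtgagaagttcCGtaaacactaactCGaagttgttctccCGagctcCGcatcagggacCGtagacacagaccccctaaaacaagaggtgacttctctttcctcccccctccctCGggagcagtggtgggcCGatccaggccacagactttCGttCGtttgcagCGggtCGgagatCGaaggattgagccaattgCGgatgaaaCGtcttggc
Suz12, chr11:79992856-79993155, plus strand: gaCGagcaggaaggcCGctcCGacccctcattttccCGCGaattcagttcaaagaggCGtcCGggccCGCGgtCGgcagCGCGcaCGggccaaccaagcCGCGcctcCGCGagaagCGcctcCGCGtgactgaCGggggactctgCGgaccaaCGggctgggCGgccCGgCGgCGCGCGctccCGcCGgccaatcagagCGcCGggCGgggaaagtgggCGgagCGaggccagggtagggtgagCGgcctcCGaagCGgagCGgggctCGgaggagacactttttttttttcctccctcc
Ezh1, chr11:101226414-101226713, minus strand: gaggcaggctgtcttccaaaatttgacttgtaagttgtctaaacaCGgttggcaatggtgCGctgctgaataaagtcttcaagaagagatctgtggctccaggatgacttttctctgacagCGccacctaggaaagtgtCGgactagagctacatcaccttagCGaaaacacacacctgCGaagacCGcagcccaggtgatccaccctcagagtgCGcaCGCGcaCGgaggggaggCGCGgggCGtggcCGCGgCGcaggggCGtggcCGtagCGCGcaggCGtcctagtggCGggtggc
CG pairs, which are among the sites that DNMT3A and related enzymes methylate, number 31 in the Ezh2 stretch, 17 in that of Eed, 41 in that of Suz12 and 23 in that of Ezh1. Members matched 42 entries of the promoter table (35 of 46 genes), with a median of 25.5 CG pairs, beside 7 over all 32851 entries. The letters TTTCGCGC, TTTGGCGC, TTTCCCGC or TTTGCCGC, known as the core of E2F sites, were searched on both strands. An entry counted once even where matches overlapped. They occurred in the stretches of Ezh2 and Suz12 and not in those of Eed and Ezh1. Over members they occurred in 4 of 42 entries (9.52%), beside 2.26% of all entries. Smc1a and an entry of Arid1a, genes lower in set B, were among these. All of the searched letters contain a CG pair, and member entries hold more such pairs than all entries do. No methylation or binding was measured in these animals, and the match is of letters only.

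Ezh2 was at 5.21 to 7.07 CPM (median 5.95) in set A and at 8.43 to 11.5 CPM (median 9.53) in set B. The sets did not overlap, and the fitted level was 60.4% higher in set B (log2 difference 0.68, SE 0.109, adjusted p = 3.42e-05 by edgeR). Suz12 was at 41.8 to 50.2 CPM (median 47.3) in set A and 50.5 to 59.1 CPM (median 54.0) in set B. Its sets did not overlap either, at 0.26 (SE 0.0550, adjusted p = 0.000758 by edgeR). Eed, which reads methylated lysine 27, was at 5.52 to 7.36 CPM (median 5.82) and 6.44 to 8.43 CPM (median 7.65). Its ranges overlapped, at 0.32 (SE 0.104, adjusted p = 0.0162 by edgeR), and it was not called without heterozygous replicate 5. Ezh1 went the other way, from 65.4 to 70.9 CPM (median 67.5) in set A to 54.2 to 65.7 CPM (median 61.5) in set B, with a slight overlap (-0.16, SE 0.0522, adjusted p = 0.0171 by edgeR). The ratio of Ezh1 to Ezh2 per kilobase was thus 8.47 to 11.8 in set A and 4.38 to 6.93 in set B, with no overlap.

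Kdm6b, which removes methyl groups from lysine 27, was at 28.4 to 53.8 CPM (median 37.7) in set A and 25.9 to 37.3 CPM (median 33.5) in set B. Its ranges overlapped widely, at -0.30 (SE 0.110, adjusted p = 0.0369 by edgeR). That call was lost in 9 of the 14 fits that left out 1 animal. Asxl1 was at 70.6 to 92.8 CPM (median 86.0) and 57.7 to 77.0 CPM (median 70.1), with overlap through the heterozygotes of set B (-0.28, SE 0.0663, adjusted p = 0.00191 by edgeR). Asxl3 was not called.

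**Figure D4:**
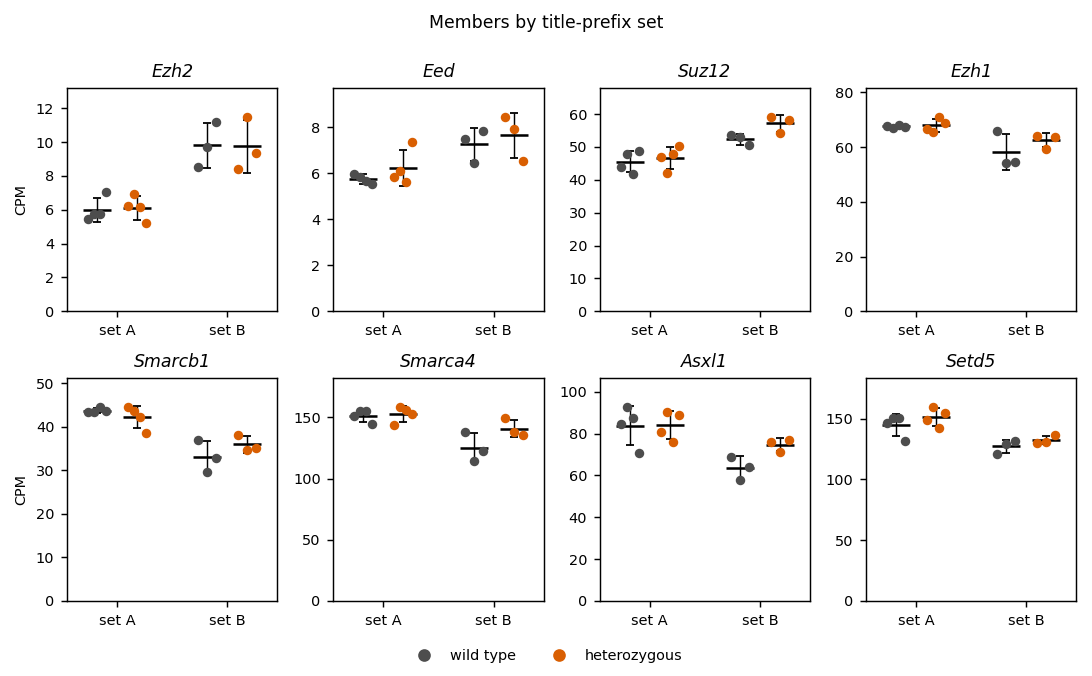
CPM (vertical axis, from 0) of 8 members in each animal of set A and set B. Grey points are wild-type and orange points heterozygous animals, with the mean and SD of each group of 3 or 4. Ezh2, Eed and Suz12 are higher in set B, with no overlap between the sets for Ezh2 and Suz12, while Ezh1, Smarcb1, Smarca4, Asxl1 and Setd5 are lower.

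Among BAF and PBAF members, 5 of 8 were called, 4 lower in set B and 1 higher. Smarcb1, a core subunit, was at 38.7 to 44.6 CPM (median 43.5) in set A and 29.6 to 38.3 CPM (median 34.9) in set B. The sets did not overlap (-0.30, SE 0.0565, adjusted p = 0.000207 by edgeR). Bcl11a was at 100.6 to 124 CPM (median 111) and 82.4 to 113.8 CPM (median 93.4), with overlap through the heterozygotes of set B (-0.21, SE 0.0606, adjusted p = 0.00689 by edgeR). Smarca4 (-0.19) and Arid1a (-0.15) were lower as well, Arid1a with ranges apart at 230.2 to 284 and 219.9 to 228 CPM. Smarcc2 was higher (0.16). With Ezh2, Suz12, Smarcb1 and Arid1a, 4 of 46 members had sets that did not overlap, beside 12.1% of all genes.

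Setd5, a SET domain gene of autism and intellectual disability, was at 132 to 159.7 CPM (median 149.6) in set A and 121 to 136 CPM (median 130.5) in set B. The overlap was small (-0.20, SE 0.0495, adjusted p = 0.00301 by edgeR). Smc1a was at 42.6 to 51.7 CPM (median 49.3) and 30.7 to 51.6 CPM (median 41.4). The ranges overlapped, and the animals of set B below all of set A were its wild-type females and heterozygous replicate 6 (-0.23, SE 0.0793, adjusted p = 0.0232 by edgeR). The call was lost in 5 of 14 fits that left out 1 animal.

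Hdac8, the deacetylase that releases cohesin for reuse, was higher in set B, at 6.61 to 8.48 CPM (median 7.50) against 3.95 to 7.01 CPM (median 5.92). The overlap was slight (0.37, SE 0.124, adjusted p = 0.0201 by edgeR), and leaving out wild type replicate 3 or 5 ended the call. Chd3 was at 506 to 583 CPM (median 554) in set A and 537 to 788 CPM (median 630.4) in set B, with overlap through the heterozygotes (0.21, SE 0.0617, adjusted p = 0.0100 by edgeR). Phf6, the X-linked gene of Borjeson-Forssman-Lehmann syndrome, was at 30.8 to 40.0 CPM (median 32.3) and 33.9 to 40.6 CPM (median 38.6). Its ranges overlapped (0.19, SE 0.0634, adjusted p = 0.0224 by edgeR), and 4 of 14 fits without 1 animal lost the call. The other calls were Smc3 (0.16), Pogz (-0.16), Kdm5c (-0.16), Auts2 (-0.14) and Ehmt2 (-0.13). The remaining 25 members had values from -0.13 (Chd4) to 0.15 (Chd7).

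The member count rested on which animals were used, as did the count of all genes. It was 15 in females alone (32.6%, beside 35.3% of all genes) and 0 in males alone (beside 8.02%). It was 13 in wild types alone (28.3%, beside 29.5%), 5 in heterozygotes alone (10.9%, beside 21.5%) and 12 without wild type replicate 3 (26.1%, beside 33.6%). In each of these fits the share of members was at or below that of all genes. In the 6 males, Ezh2 had 0.39 (adjusted p = 0.176 by edgeR). Beside these differences, mitochondrial transcripts other than ribosomal RNA took 0.571 to 0.860% of counts in set A and 1.11 to 1.99% in set B. The mitochondrial ribosomal RNA mt-Rnr2 went the other way, with overlap. It took 3.17 to 4.84% (median 3.79%) in set A and 1.70 to 3.81% (median 2.58%) in set B. Astrocyte markers were higher in set B in 6 of 6 (median 0.52), neuron markers lower in 5 of 8 (median -0.24) and oligodendrocyte markers higher in 3 of 6 (median 0.17). The summed striatum markers were at 127 to 412 CPM in set A and 152 to 261 CPM in set B. What these have to do with the member genes was not tested.

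Partners of the members were described from lists chosen by complex. Of 138 tested, 59 passed between the sets (42.8%), 29 higher and 30 lower in set B, near the 38.8% of all genes. The PRC2 partners had 3 of 8 called (37.5%): Rbbp4, a histone-binding subunit, at 0.20, and Phf1 (-0.35) and Jarid2 (-0.22), accessory subunits. PRC1 and deubiquitinase genes had 7 of 22 (31.8%), among them Pcgf6 (0.47) and Yaf2 (0.32) upward and Pcgf2 (-0.39) downward. The list of cohesin genes had 8 of 11 called (72.7%), 7 higher and 1 lower. Those higher were Esco1 (0.51), which acetylates the ring, the kleisin gene Rad21 (0.40), the subunit genes Stag1 (0.38) and Stag2 (0.31), the release factor gene Wapl (0.24), and Smc5 (0.33) and Smc6 (0.19), which form a related complex. The lower one, Dcaf7 (-0.26), was put on that list by mistake and is no cohesin gene.

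The other partner lists moved both ways. Lysine 36 and 9 enzymes and readers had 11 of 23 called (47.8%), with the heterochromatin protein gene Cbx1 at 0.53 and the corepressor gene Trim28 at -0.40. The list for lysine 4, which holds methyltransferases, their subunits, demethylases and also the lysine 27 demethylase gene Kdm6a, had 9 of 15 called, with the subunit gene Dpy30 at 0.33 and the methyltransferase gene Setd1b at -0.33. Other BAF subunits had 8 of 20 called (Ss18 at 0.26, Smarcd2 at -0.30), acetylation and NCoR genes 8 of 22 (Kat6b at 0.28, Kat2a at -0.38), and other CHD and NuRD genes 5 of 17 (Chd1l at 0.37, Mta2 at -0.24).

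Sex was compared last, because 7 members lie on the X chromosome. Each prefix holds only 1 sex, so sex too varied only between prefixes, while the fits took each animal as a separate replicate. Of the 46 members, 1 was called between females and males, higher in females, beside 0.123% of all genes (0.101% higher and 0.0217% lower). At an unadjusted p under 0.05 there were 4 members (8.70%), beside 9.95% of all genes, and over all animals no member had ranges apart (0.217% of all genes did). Kdm5c, which removes methyl groups from lysine 4 and is known to escape X inactivation, was at 84.7 to 118 CPM (median 97.3) in 8 females and 75.8 to 88.4 CPM (median 80.2) in 6 males. The ranges overlapped over all animals but not within a set: in set B females had 84.7 to 96.8 CPM and males 77.4 and 78.3 CPM, and in set A females had 97.8 to 118 CPM and males 75.8 to 88.4 CPM. The fitted level was 22.8% higher in females (95% interval 13.4 to 33.0%, log2 difference 0.30, SE 0.0558, adjusted p = 0.0189 by edgeR). Leaving out wild type replicate 4, wild type replicate 5 or heterozygous replicate 5, all males, ended the call, with an adjusted p of up to 0.0879 by edgeR. It was also lost in set A alone (0.35, adjusted p = 0.0934 by edgeR) and without the set as a term (0.27, adjusted p = 0.518 by edgeR).

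The other 6 X-linked members were not called. They ran from -0.15 for Smc1a to 0.20 for Brwd3, with no adjusted p under 0.504 by edgeR. Atrx had 0.02 (interval -7.03 to 10.1%), Phf6 0.02, Hdac8 0.04 and Phf8 -0.07. Of the partners, Kdm6a was called. It encodes a lysine 27 demethylase, lies on the X chromosome and is also known to escape inactivation. Its range was 36.7 to 48.0 CPM (median 41.0) in females and 28.8 to 33.5 CPM (median 31.2) in males, with no overlap (0.39, SE 0.0557, adjusted p = 0.00153 by edgeR). The Y-linked copies of these genes, Kdm5d and Uty, had 171 to 261 and 241 to 402 counts in males and at most 1 in any female. They were not tested, since the filter asks for reads in 7 animals and there are 6 males.

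**Figure D5:**
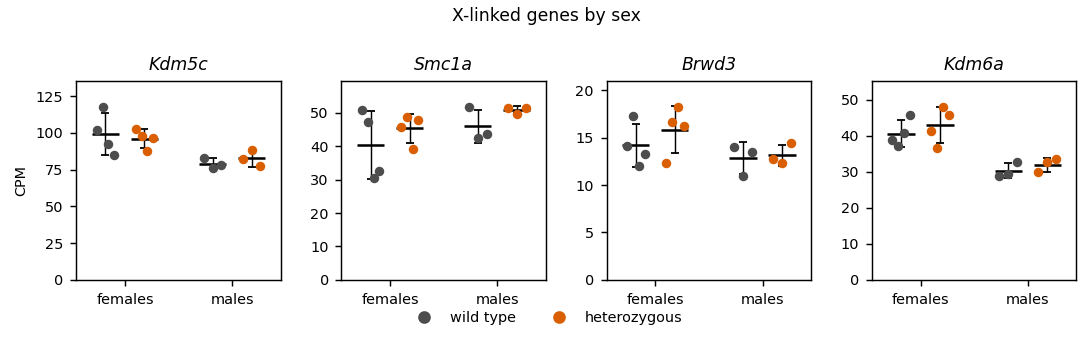
CPM (vertical axis, from 0) of 3 X-linked members and of the partner gene Kdm6a in each female and male. Grey points are wild-type and orange points heterozygous animals, with the mean and SD of each group of 3 or 4. Kdm5c and Kdm6a are higher in females, while Smc1a and Brwd3 were not called.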

How the data were processed

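RNA from the cortex of 14 mice was sequenced as single-end reads from a directional kit, per the labels' protocols, although a label names the molecule as genomic DNA. The authors deposited 1 table of whole-number counts per gene, and its counts carry no normalization. The table also holds the authors' deposited log2 fold change, a test statistic (a score with no fixed range), and a p-value with its adjusted form. The submitters' processing notes list STAR, bedtools, Trim Galore and Bowtie without version or role, and the mouse build mm9. Nothing used here says if reads were counted by strand, so overlapping genes on opposite strands may be mixed.

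The 46 members and all lists of partners and markers were chosen with earlier results of these data known. Of 146 partners, 144 had a row (15 under an older symbol) and 138 were tested. The counts were fitted in R 4.3.3 by edgeR 4.0.16, with limma 3.58.1, using filterByExpr by genotype, TMM factors and the robust quasi-likelihood F test. P-values were adjusted by Benjamini-Hochberg over all 13815 tested genes, with a threshold of 0.05. Sex, set and genotype were additive terms. Standard errors came from the fold change and F statistic, and 95% intervals from edgeR's total degrees of freedom. The fit within a set used its animals alone. The steps were tested on simulated data. Alternatives were another normalization, other filters, DESeq2 1.42.0, other terms, the title prefix as a block, and each animal left out. Fits within set B with 1 animal left out, with DESeq2 or with prefix 141 alone were added after the data had been seen.

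The title prefix is the origin of the pairing of heterozygotes with wild types. Across genes, deviations from the genotype mean correlated at 0.200 to 0.517 in the 9 pairs that share a prefix. With sex and set removed as well the values were -0.328 to -0.00545. Replicates are separate animals, numbered 1 to 7 by accession within a genotype. No replicate pair of a genotype agreed within sampling noise. Exon lengths are from GENCODE M21, of another build than the counts, and promoters from RefSeq on GRCm38.p6. The genes with all their values are the members called for genotype, set (the 6 highest and 6 lowest) or sex, the 6 with the smallest p for genotype, and 6 pairs of related genes. Of the partners, genes called for sex are given, and at most 2 in each direction of a list for the set, apart from the cohesin list, whose 8 calls were all named after their values were seen. Ezh1, Arid1a, Smarca4 and other called members were named on the same footing.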

Additional observations from a re-analysis of the deposited data

Results flagged for a closer look

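In each genotype, the highest and the lowest of the 7 animals were compared with the nearest other animal for every member, by the gap as a share of the group's range. Of 92 groups, 6 had an animal whose gap exceeded Dixon's 95% critical value of 0.568, and about 4.6 would be flagged by chance. Setd2 was at 129.9 CPM in wild type replicate 2, above the next animal at 121 CPM. Ash1l, a methyltransferase gene of lysine 36, was at 341 CPM in wild type replicate 4, below the next at 400.3 CPM. Ankrd11, the gene of KBG syndrome, was at 196 CPM in the same animal, below 239 CPM. Chd2, a remodeler gene of epilepsy, was at 79.8 CPM in heterozygous replicate 7, above 68.5 CPM. Adnp was at 189 CPM in heterozygous replicate 3, below the next animal. Arid1a was at 284 CPM in heterozygous replicate 2, above 247 CPM. The median deviation of the 46 members from each gene's mean, in log2 CPM, ran over the 14 animals from -0.088 in wild type replicate 7 to 0.087 in wild type replicate 3, with wild type replicate 4 at -0.077.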

How the results depend on the processing

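The count of members called for genotype stayed at 0 under every alternative run on all 14 animals, on females or on males, and with any 1 animal left out (0 to 0), and was 14 in set B alone. Genes called for genotype, 15 in the fit reported, were 242 with no filter, 29 by DESeq2, 2 with sex alone, 56 with the replicate block (title prefix), 0 in set A, 2304 in set B, 9 in females and 3 in males, and 5 to 18 with 1 animal left out. The set comparison gave 1119 genes and 0 members in males, 2816 genes and 5 members in heterozygotes and 13 members in wild types. With 1 animal left out it gave 4654 to 5483 genes and 12 to 23 members. The sex comparison gave 261 genes and 2 members with no filter, 47 genes by DESeq2, 1 gene and 0 members without the set term, 9 genes and 0 members in set A, and 1892 genes and 6 members in set B. With 1 animal left out it gave 2 to 53 genes and 0 to 1 members. In set B each sex is 1 prefix, so sex and prefix cannot be told apart there. The interaction with set gave 381 genes with no filter, 23 with a minimum of 1 CPM in 7 animals, 210 by DESeq2, 767 with the replicate block and 0 to 850 with 1 animal left out. The interaction with sex gave 5 genes with no filter and 0 to 0 with 1 animal left out. Within set B, DESeq2 called 1460 genes and 9 members, and leaving out 1 animal gave 1241 to 2403 genes and 5 to 12 members. Of the values of single genes under alternatives, 464 kept direction and call, 58 lost the call, 9 gained it and 0 reversed. Most of these genes were picked for small p or large differences in the same data, so the lack of reversals was partly set by that choice. For genes not called in the fit reported, keeping the call means that they were still not called. The block changed no call of a member for genotype or for the interaction of genotype with sex. It was not run for sex itself, since each prefix holds only 1 sex. The cause of these shifts was not tested.

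Depth limits the lowest members most: Ezh2, Hdac8 and Eed had the fewest reads, and an absent call there leaves wide intervals, such as -8.24 to 23.1% for Eed. Set B holds 6 animals, so its calls rest on 3 against 3. P-values rest on the spread among these animals only, and edgeR also draws each gene's spread partly from that of other genes. In the genotype fit Dnmt3a had 24.3 degrees of freedom, where the fit alone leaves 10. The sets were drawn from the data, and the prefix is not explained in the labels.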
